A study of Sus scrofa with 18 samples.

Results

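A set of 9 genes of mitochondrial respiration and its NADH supply were followed in the muscle mRNA of Hechuan black pigs. ND1, ND2, ND3, ND4, CYTB and ATP6 are encoded by mitochondrial DNA, and MDH1, UQCRFS1 and COX6A2 by the nuclear genome. The genes were picked by symbol from the authors' deposited table of mRNAs that differ between HC-L and HC-P muscle, so the 9 members are 9 of 522 genes. All animals were adult castrated sows of the same breed, with no treatment, and each muscle group has 3 mRNA libraries per the labels. The study set out to compare an oxidative with a glycolytic muscle, but which of the groups is the oxidative muscle cannot be read from the labels, nor whether the libraries come from separate pigs. Each gene was in the table because the authors had called it changed, so its difference between the muscles is described here and not tested.

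The respiratory chain is built from proteins of both genomes. Mitochondrial DNA encodes core membrane subunits of complexes I, III, IV and V, transcribed as long precursors that are cut into single mRNAs, while the remaining subunits are made in the cytosol and imported. Oxidative muscle fibres are known for many mitochondria, and electrons of cytosolic NADH reach mitochondria through shuttles such as the malate-aspartate shuttle. MDH1 works in that shuttle as a cytosolic malate dehydrogenase and is not itself a mitochondrial protein.

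Of the 9 genes, 8 were higher in HC-P and 1, COX6A2, was higher in HC-L. All 6 mitochondrially encoded genes were about equally higher in HC-P, by 2.06-fold to 2.32-fold, and MDH1 and UQCRFS1 were higher by 2.25-fold and 2.03-fold. COX6A2 was 2.34-fold higher in HC-L. Of all 522 genes in the table, 31.8% were called higher in HC-P and 68.2% higher in HC-L. No library of one muscle overlapped the other for any of the 9 genes, which held for 94.4% of the table as well, and nothing is read from that count because the table was selected on the same difference. The values are a signal scaled per library by the authors, so they compare a gene between libraries but not genes with each other, since no gene lengths enter them.

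Before the single genes, some facts of the libraries bear on all of them. All values of a library were whole multiples of its smallest value above 0, as read counts would be after division by a library factor. If such a step is a read, the least covered value among the members rests on 1107 reads (COX6A2 in HC-P replicate 1), so counting error is small beside the spread between libraries. HC-L replicate 3 stood apart from the other HC-L libraries. For 17.4% of the table's genes it lay nearer to the HC-P mean than to the mean of the other HC-L libraries on the log2 scale, against 9.0% and 1.92% for HC-L replicates 1 and 2 and at most 5.94% for an HC-P library. Values without it are therefore given where they differ. Among the members, HC-L replicate 3 lay nearer to HC-P in this way for MDH1 and UQCRFS1 only. HC-P replicate 3 lay nearer to the HC-L mean for ND1, ND2, ND4, CYTB, ATP6 and COX6A2, against 4.41% of the table's genes. These are bulk tissue samples, in which fewer cells of a type and less RNA per cell cannot be told apart.

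ND1, ND2, ND3 and ND4 are core subunits of complex I, which takes electrons from NADH and pumps protons. ND1 (ENSSSCG00000018065) had signals of 12446, 17592 and 13164 in HC-L replicates 1 to 3 and of 40762, 33377 and 20147 in HC-P. The lowest HC-P library was only 1.15-fold above the highest HC-L library. The group means were 14401 ± 2787 and 31428 ± 10445 (SD, n = 3 each), a log2 ratio of HC-L over HC-P of -1.13 ± 0.34 (SE from the log2 values).

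ND2 (ENSSSCG00000018069) had 14064, 25254 and 22108 in HC-L against 56426, 43080 and 27055 in HC-P. Its groups came closest of the 9 genes, with a gap of 1.07-fold between HC-P replicate 3 and HC-L replicate 2. The log2 ratio was -1.04 ± 0.40.

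ND4 (ENSSSCG00000018087) had 75617, 108609 and 84621 in HC-L against 270794, 211821 and 135832 in HC-P. Its means of 89616 ± 17054 and 206149 ± 67660 gave a log2 ratio of -1.20 ± 0.33. As for ND1 and ND2, HC-P replicate 1 was the highest library and HC-L replicate 1 the lowest.

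ND3 (ENSSSCG00000018084) was the exception in the order of its HC-P libraries. It had 12043, 21149 and 21124 in HC-L against 31539, 59273 and 35193 in HC-P, so that HC-P replicate 1 was the lowest HC-P library here and replicate 2 the highest. The means were 18106 ± 5250 and 42001 ± 15068, with a log2 ratio of -1.21 ± 0.39. The ratio of the group medians was smaller, at -0.74.

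CYTB (ENSSSCG00000018094) encodes cytochrome b, the mitochondrially encoded subunit of complex III, which passes electrons from ubiquinol to cytochrome c. Its signals were 79545, 131681 and 99352 in HC-L against 271270, 232257 and 141990 in HC-P. The gap between the nearest libraries was 1.08-fold and the log2 ratio -1.06 ± 0.35.

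ATP6 (ENSSSCG00000018081) encodes subunit a of the ATP synthase, the part of the proton channel that lets protons back through the inner membrane. It had 97112, 172245 and 154121 in HC-L against 415575, 336916 and 218427 in HC-P. The means were 141159 ± 39208 and 323639 ± 99242, a log2 ratio of -1.20 ± 0.37. All HC-P libraries lay above all HC-L libraries, by at least 1.27-fold.

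**Figure D1:**
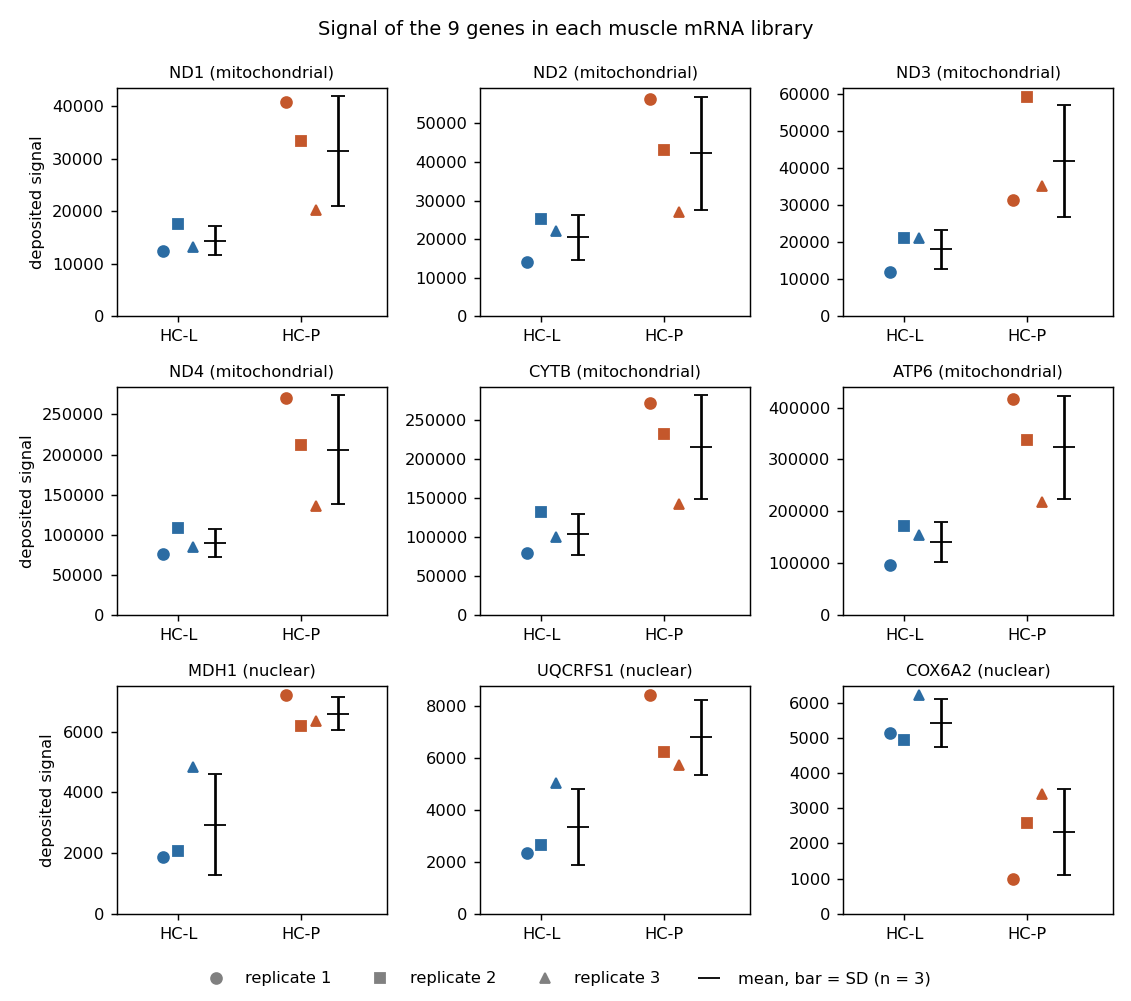
Deposited signal of the 9 genes (vertical axes from 0, 1 panel per gene) in each of the 3 HC-L and 3 HC-P muscle mRNA libraries, with the group mean and SD beside the points. The first 8 genes are higher in all HC-P libraries, with HC-L replicate 3 of MDH1 (4842) and UQCRFS1 (5025) near the HC-P points, and COX6A2 is higher in all HC-L libraries.

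Among the nuclear encoded genes, UQCRFS1 (ENSSSCG00000027085) encodes the Rieske iron-sulfur protein of complex III, the partner of cytochrome b in electron transfer. It had 2361, 2649 and 5025 in HC-L against 8440, 6210 and 5721 in HC-P. HC-L replicate 3 was the high HC-L library, and the lowest HC-P library was 1.14-fold above it. The means were 3345 ± 1462 and 6791 ± 1450, with a log2 ratio of -1.02 ± 0.38 and of -1.44 without HC-L replicate 3. CYTB and UQCRFS1, from different genomes and in the same complex, thus had ratios of -1.06 and -1.02.

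MDH1 (ENSSSCG00000025751) had 1881, 2058 and 4842 in HC-L against 7203, 6191 and 6348 in HC-P. The HC-L values were spread widely, with a coefficient of variation of 56.7% against 8.28% in HC-P, and replicate 3 was again the high library. The log2 ratio was -1.17 ± 0.44 with all libraries and -1.74 without HC-L replicate 3. The authors' table names a related miRNA for 320 of the 522 genes and for 1 of the 9 members, miR-21-3p for MDH1. In the muscle small RNA libraries that miRNA had 3, 0 and 2 reads in HC-L against 0, 2 and 0 in HC-P, out of 3964875 to 9016010 miRNA reads. These counts do not exceed a floor of 3 reads, so no difference was detectable at this depth.

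COX6A2 (ENSSSCG00000036789) encodes the form of cytochrome c oxidase subunit 6A found in heart and skeletal muscle, a regulatory subunit of complex IV. It had 5146, 4942 and 6209 in HC-L against 991, 2589 and 3400 in HC-P. The HC-L libraries were close together (coefficient of variation 12.5%) and the HC-P libraries far apart (52.7%), with HC-P replicate 1 the lowest. The means were 5432 ± 680 and 2326 ± 1225, a log2 ratio of 1.22 ± 0.55. Without HC-P replicate 1 the ratio was 0.86, and without HC-P replicate 3 it was 1.60. The values were also scaled to the summed signal of all genes of the table but the 6 mitochondrially encoded members. With this scale, which still includes an unnamed gene annotated like ND1 (ENSSSCG00000035520), the ratio of COX6A2 turned to -0.11. That scaling moved the median of all 522 genes by -1.38, from 1.41 to 0.037, and relative to the table median COX6A2 was at -0.19 before and -0.14 after it.

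**Figure D2:**
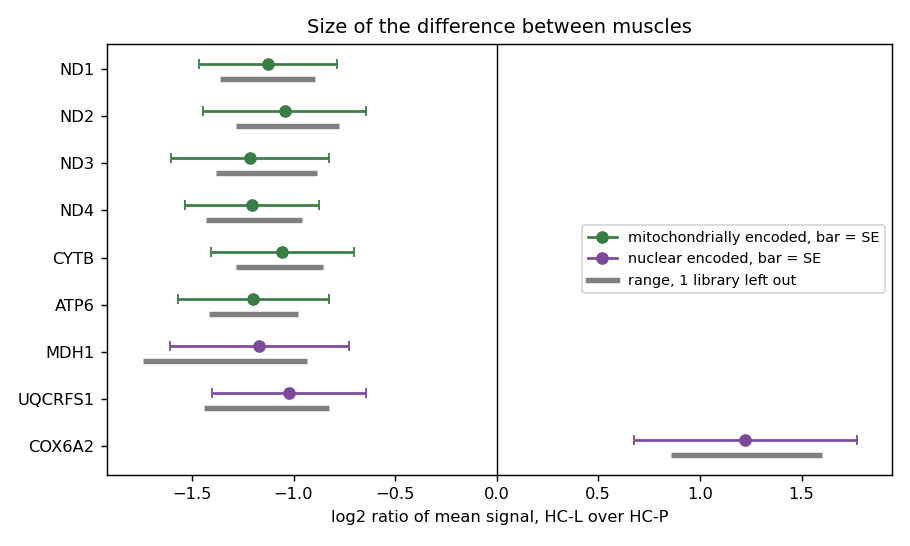
Log2 ratio of mean signal of HC-L over HC-P (horizontal axis) for each gene, with its standard error from 3 libraries a group, and below it in grey the range when any single library is left out. The 6 mitochondrially encoded genes lie between -1.21 and -1.04, and COX6A2 stands alone on the positive side at 1.22.

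Set side by side, the mitochondrially encoded genes had a median log2 ratio of -1.16 and differed among themselves by less than the standard error of any of them. The nuclear encoded genes did not share a direction, and their median of -1.02 is simply the value of UQCRFS1. The difference between the medians, -0.14, was smaller than the spread between libraries and changed sign under some choices, to 0.31 without HC-L replicate 3 and to 0.053 with group medians. Over all genes of the table the median of the authors' log2 fold changes was 1.41, and it was -1.43 among the genes higher in HC-P. The members therefore lay among the smaller differences of the table. The authors' deposited absolute log2 fold changes ran from 1.02 to 1.22 for the members, against a median of 1.76 for the table, in which 108 genes lay below the largest member value.

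The table's limits were an adjusted p under 0.05 and an absolute log2 fold change of at least 1, and several members sat just inside them. In the authors' deposited table UQCRFS1 had a log2 fold change of -1.02 with an adjusted p of 0.0498, the highest in the table. The authors' deposited table gave adjusted p-values of 0.0490 for COX6A2, 0.0442 for ND2 and 0.0382 for MDH1. ND4 had the lowest adjusted p of the members in the authors' deposited table, at 0.00339. Genes just outside the limits were not analysed here, because the table lists called genes only.

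Within each muscle the mitochondrially encoded genes moved as a block, apart from ND3 in HC-P. All 6 were lowest in HC-L replicate 1 and highest in HC-L replicate 2, and 5 of 6 were highest in HC-P replicate 1 and lowest in HC-P replicate 3. The order of the libraries within both muscles was identical for ND1, ND2, ND4, CYTB and ATP6. Of the 166 genes of the table higher in HC-P, 10 had this order, these 5 included, while the place of HC-L below HC-P was fixed by the selection. The nuclear encoded genes did not follow them in HC-L. MDH1, UQCRFS1 and COX6A2 were all highest in HC-L replicate 3, where MDH1 was 0.87 and UQCRFS1 0.67 above its group mean of log2 signal, while the mitochondrially encoded genes were between -0.11 and 0.27. Of the whole table, 30.8% of genes were highest in HC-L replicate 3 among the HC-L libraries, and 40.8% were highest in HC-L replicate 2.

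In HC-P replicates 1 and 3, the block without ND3 lay on the opposite side of its group means from COX6A2. In HC-P replicate 2 they lay on the same side, with COX6A2 at 0.33 and the mitochondrially encoded genes at 0.09 to 0.55. Replicate 1 had the highest signal of 5 mitochondrially encoded genes, of MDH1 and of UQCRFS1, and the lowest signal of COX6A2, which was 1.05 below its group mean on the log2 scale. In replicate 3, the mitochondrially encoded genes other than ND3 were between -0.58 and -0.52 and COX6A2 was at 0.72. The log2 ratio of COX6A2 to UQCRFS1 in the same library, which needs no scaling between libraries, was 1.12, 0.90 and 0.31 in HC-L against -3.09, -1.26 and -0.75 in HC-P. That the muscles do not overlap in this ratio follows from the choice of genes called in opposite directions. Within HC-P, replicate 1 was the farthest from the other libraries. These ratios rest on 3 libraries a muscle and describe them.

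**Figure D3:**
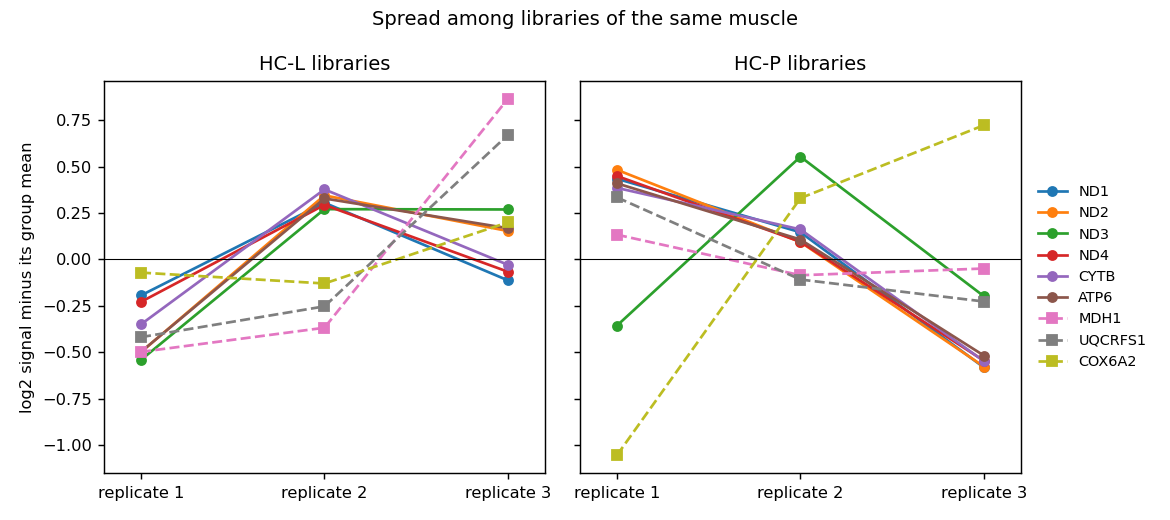
Log2 signal of each gene minus the mean of its own muscle group (vertical axis) in the HC-L libraries (left) and HC-P libraries (right); circles with solid lines are mitochondrially encoded, squares with dashed lines nuclear encoded, and lines only join the points of a gene. The mitochondrially encoded genes run together except ND3 in HC-P (-0.36, 0.55 and -0.20 in replicates 1 to 3). COX6A2 falls to -1.05 in HC-P replicate 1.

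Libraries with the same number in the labels were also set against each other. For ATP6 the log2 difference of HC-P minus HC-L was 2.10 between replicates 1, 0.97 between replicates 2 and 0.50 between replicates 3. ND2 ran from 2.0 to 0.29 in the same way, and UQCRFS1 from 1.84 to 0.19. For COX6A2 the differences were -2.38, -0.93 and -0.87. The direction is fixed in every pair, since the groups of these genes do not overlap, and only the sizes are described. For each gene but ND3 the pair of replicates 1 was the farthest from 0. In replicate 1 ATP6 was 0.50 below its group mean of log2 signal in HC-L and 0.41 above it in HC-P. The other members also lay on opposite sides there, except ND3 and COX6A2, which were below their means in both muscles.

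Because the mitochondrially encoded genes come from a shared precursor, their proportions within a library were compared by setting each against ATP6, again without scaling between libraries. The log2 ratio of ND4 to ATP6 was -0.63 ± 0.25 in HC-L against -0.66 ± 0.04 in HC-P (SD, n = 3), and that of ND1 was -3.27 ± 0.29 and -3.37 ± 0.06. Both overlapped between the muscles. CYTB was at -0.44 ± 0.18 and -0.59 ± 0.05, also with overlap.

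ND2 relative to ATP6 was -2.79 ± 0.02 in HC-L against -2.95 ± 0.07 in HC-P, and its groups did not overlap, although the difference of 0.17 is small beside the difference of either gene between the muscles. ND3 was the variable member. Its ratio to ATP6 was -3.01, -3.03 and -2.87 in HC-L, compared with -3.72, -2.51 and -2.63 in HC-P, where replicate 1 was lower and the other 2 libraries higher than all of HC-L. In the RefSeq annotation of assembly Sscrofa11.1 the order along the mitochondrial genome is ND1, ND2, ATP6, ND3, ND4 and CYTB, and the log2 ratios of the muscles in that order were -1.13, -1.04, -1.20, -1.21, -1.20 and -1.06. They showed no steady course along it.

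**Figure D4:**
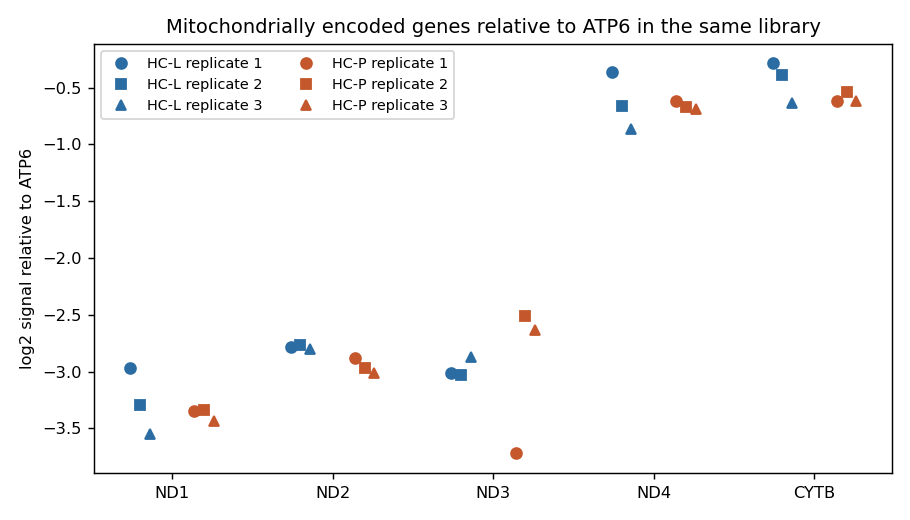
Log2 signal of ND1, ND2, ND3, ND4 and CYTB relative to ATP6 in the same library (vertical axis), for 3 HC-L and 3 HC-P libraries; heights of different genes are not comparable, because gene lengths are not taken into account. The points of a gene lie within 0.59 of each other except for ND3, whose HC-P replicate 1 is at -3.72.

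The mitochondrially encoded genes also weighed heavily in the table's summed signal. Together the 6 took 11.8%, 14.6% and 18.5% of the signal of the 522 genes in HC-L replicates 1 to 3 and 57.4%, 48.8% and 42.8% in HC-P. The shares were 15.0% ± 3.38 and 49.6% ± 7.34 (SD, n = 3 each). The summed signal of the 6 was 387282 ± 93061 in HC-L against 860578 ± 258476 in HC-P. The table holds 356 genes called higher in HC-L against 166 called higher in HC-P. Its other genes, without an unnamed gene annotated with complex I subunit 1, summed to 2210080 ± 525608 in HC-L against 794540 ± 96479 in HC-P. The smaller sum of the other genes also raises the share of the 6 in HC-P. These are shares of the listed genes and not of the whole library.

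**Figure D5:**
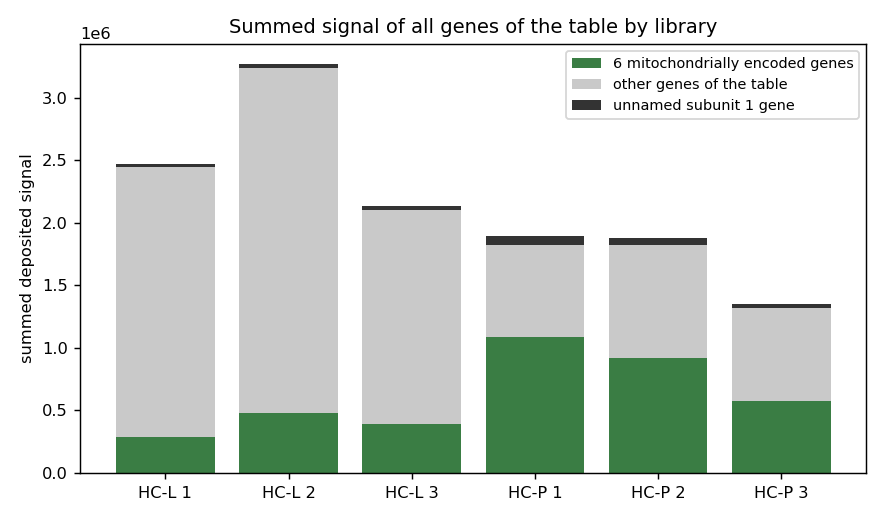
Summed deposited signal of the 522 genes of the table in each library (vertical axis, from 0), split into the 6 mitochondrially encoded genes, an unnamed gene annotated with complex I subunit 1, and all other genes. The green part makes up 11.8% to 18.5% of the HC-L bars and 42.8% to 57.4% of the HC-P bars.

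The value of ND1 carries a limit of its own. The table also holds ENSSSCG00000035520, which has no symbol and whose deposited annotation names the NADH:ubiquinone oxidoreductase subunit 1 family, as that of ND1 does. Its signal was 19573, 32201 and 25043 in HC-L against 68760, 57374 and 34490 in HC-P, and in every library it was 1.57 to 1.90 times that of ND1. The rule for reads that fit both genes was not given in the sources used here, so the signal of ND1 is uncertain. The sum of both had a log2 ratio of -1.09, close to the -1.13 of ND1. The coding sequences of ND4 and ND4L and of ATP6 and ATP8 overlap in mammals, and the same uncertainty holds for ND4 and ATP6.

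By likeness to the mean log2 signal of the mitochondrially encoded genes over the 6 libraries, the nearest of the other 513 genes was that same unnamed gene, with a Pearson correlation of 0.99. TMEM143, a transmembrane protein, followed at 0.97, with 314, 375 and 325 in HC-L against 808, 757 and 537 in HC-P. PNPLA2, the adipose triglyceride lipase that releases fatty acids from stored fat, was also at 0.97, with 2269, 3241 and 2903 in HC-L against 7686, 7092 and 5832 in HC-P. The remaining places among the 5 most alike went to genes without a symbol, at 0.97 and 0.96. The correlation was 0.83 for UQCRFS1, 0.78 for MDH1 and -0.86 for COX6A2. The table was selected on the difference between the muscles, which all its genes share, and the median absolute correlation of the other genes was already 0.78.

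Beyond the members, lists of respiration genes were searched for in the table by symbol. Of the 13 proteins encoded by mitochondrial DNA, 6 were in the table, all called higher in HC-P by the authors. Not found by symbol were 7, namely ND4L, ND5, ND6, COX1, COX2, COX3 and ATP8, and their values were not analysed here. Of 190 nuclear genes in lists of respiratory complexes, the citric acid cycle, NADH shuttles, mitochondrial biogenesis and mitochondrial stress, 5 were in the table, 4 of them higher in HC-P and 1 higher in HC-L. Besides the members these were GOT1 and PDP1. The lists of 44 nuclear complex I genes, 8 complex II genes and 22 ATP synthase and carrier genes had 0 genes matched by symbol in the table. The same held for the lists of 24 genes of mitochondrial biogenesis and 10 of uncoupling and mitochondrial stress. A gene can be missing there because it was not tested, was too small in difference or missed the p limit. It can also be there unmatched, since only 429 of the 522 genes had a symbol. A missing match therefore says nothing about the level of a gene.

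GOT1, the cytosolic aspartate aminotransferase, is the partner of MDH1 in the malate-aspartate shuttle. It had 1638, 1379 and 3210 in HC-L against 4555, 4956 and 4114 in HC-P, with a log2 ratio of -1.13 ± 0.38. As for MDH1, HC-L replicate 3 was the high HC-L library, and GOT1 relative to MDH1 in the same library was -0.46 ± 0.22 in HC-L against -0.54 ± 0.19 in HC-P on the log2 scale. Of the 12 genes of the NADH shuttle list, MDH1 and GOT1 were those in the table. PDP1, a phosphatase that switches on the pyruvate dehydrogenase complex, had 516, 327 and 319 in HC-L against 1090, 885 and 694 in HC-P, a log2 ratio of -1.20 ± 0.29. Its highest HC-L library was replicate 1, unlike that of the shuttle genes.

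Some fibre and cell type markers also differed between the muscles, mostly with higher signal in HC-L, where 68.2% of all 522 genes were called higher. The part of these markers in the results was not tested. Of 15 slow fibre genes, 2 were in the table, CSRP3 and ANKRD2, both with higher means in HC-L. Their summed signals were 3199 to 33816 in HC-L against 1218 to 2674 in HC-P. CSRP3, a muscle LIM protein, was at 1437, 2535 and 21935 in HC-L against 57.3, 394 and 678 in HC-P. ANKRD2, a stretch-responsive ankyrin repeat protein, was at 1762, 5566 and 11881 against 1160, 1517 and 1996. The muscles overlapped for ANKRD2, with HC-L replicate 1 below HC-P replicate 3. Of 20 fast fibre genes, TNNC2 and TPM1 were in the table, both with higher means in HC-L. Their summed signals were 141703 to 439555 against 99119 to 162285. The muscles overlapped for both genes. HC-L replicate 3 lay below HC-P replicate 2, at 85321 against 105485 for TNNC2 and 56382 against 56800 for TPM1. HC-L replicate 3 was the highest HC-L library for CSRP3 and ANKRD2 and the lowest for TNNC2 (85321, against 226263 and 256100) and TPM1. These 4 muscle genes were present in every library, and the myosin heavy chains that define fibre types were not found in the table by symbol.

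Of 7 adipocyte markers, 5 were in the table, 4 higher in HC-L against 1 higher in HC-P, beside 68.2% of the table higher in HC-L. ADIPOQ, the fat cell hormone adiponectin, was at 141, 682 and 338 in HC-L against 59.1, 121 and 110 in HC-P. PLIN1, CIDEC and LEP were higher in HC-L as well. LPL, a lipase that muscle also makes, was higher in HC-P, at 4987, 3469 and 8359 against 11951, 12873 and 15995. Because LPL dominates, the summed signal of the list was 5286 to 9165 in HC-L against 12065 to 16293 in HC-P. The lists of endothelial, erythroid, immune, fibroblast and cardiac markers had 0 genes matched by symbol in the table.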

How the data were processed

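Small RNA and mRNA were sequenced from muscle of Hechuan black pigs, per the labels, and the 6 muscle mRNA libraries were used here. The authors deposited an mRNA table with a signal per gene and library, group means, a log2 fold change and raw and adjusted p-values. Its columns were assigned to the groups HC-L and HC-P, and replicate numbers are those of the column names. The aligner, genome build, counting rule and test were not given in the sources used here. Since the table holds genes called by the authors only, library depth is unknown and no test across genes was run. miRNA read counts of the muscle libraries, deposited by the authors, served for a single miRNA.

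Members were found by symbol in the deposited description or the Ensembl name table, which matched 406 of 522 identifiers. Members and lists were chosen with earlier results of these data known. Log2 ratios of group means were computed in Python 3.11.15 with pandas 2.3.3. The formula was checked on simulated counts with counting error only, which says nothing about the precision of ratios from 3 libraries a muscle. Standard errors come from log2(signal + 1). Positive values are higher in HC-L. Deviations from the group means correlated weakly between libraries with the same number (0.20, 0.24 and 0.15 over the 522 genes). Other pairs had -0.14 to -0.05. That contrast is partly built in, because deviations are centred within each group. The numbers were used to set libraries side by side, and that they are true pairs is not established. Genes named are the members, all list genes in the table up to 8 a list, and the 5 most alike. Alternatives were log2 means, medians, other scalings, the replicate block and leaving out each library. No sequence was printed, since none was at hand for these genes.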

Additional observations from a re-analysis of the deposited data

How the results depend on the processing

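Directions of the 9 genes are fixed with log2 means, group medians, the replicate block and any library left out, because their groups do not overlap. They also held with the table total as scale, and COX6A2 turned to -0.11 when scaled to the total without the 6 mitochondrially encoded members. That total still includes the unnamed gene annotated like ND1. The median of the mitochondrially encoded genes was -1.74 when scaled to the table total and -2.52 when scaled to the total without them. That of the nuclear encoded members was -1.54 and -2.30. These scalings moved the median of all genes by -0.63 and -1.38. With a library left out the medians ran from -1.35 to -0.92 for the mitochondrially encoded genes, from -1.44 to -0.82 for the nuclear encoded ones and from -0.44 to 0.31 for their difference. That difference was 0.053 with group medians, and it was positive without HC-L replicate 3 or HC-P replicate 2 (0.028). The cause was not tested. With log2 means the medians were -1.12 and -1.08. The replicate block, pairing libraries by number, gives the same values by construction and is no separate check. ND1 summed with the unnamed subunit 1 gene, chosen after seeing the data, gave -1.09. Of 100 alternative values for single genes, 82 moved by less than the SD of log2 values. Those of the replicate block repeat the log2 means in this count. Depth over whole libraries is unknown, and 3 libraries a muscle set the precision.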

Other observations

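Genes of mitochondrial shape and transport outside the lists, named after their values were seen, stood on both sides. SLC25A22, a mitochondrial glutamate carrier, had 65.3, 70.1 and 123 in HC-L against 223, 171 and 226 in HC-P. MTFP1, a protein of mitochondrial fission, had 122, 126 and 181 in HC-L against 420, 337 and 276 in HC-P. Both were highest in HC-L replicate 3 among the HC-L libraries, as MDH1, UQCRFS1 and GOT1 were. FIS1, an outer membrane fission protein, was 2.62-fold higher in HC-L, with 1153, 1172 and 1044 against 158, 554 and 572. Its HC-P libraries lay in the order seen for COX6A2, with replicate 1 the lowest and replicate 3 the highest. MTFR2, a fission regulator, had few reads, at 35.1, 85.9 and 10.9 in HC-L against 9.85, 6.34 and 5.43 in HC-P.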
